A study of Mus musculus with 24 samples.

Results

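The 9 genes described here encode the stress sensors of the endoplasmic reticulum (ER) other than PERK, the transcription factor XBP1 that acts downstream of IRE1, and the proteases that release these sensors from the membrane. They are Ern1, Xbp1, Atf6, Atf6b, Creb3, Creb3l1, Creb3l2, Mbtps1 and Mbtps2, chosen by name out of 20170 genes with a named probe, each through its brightest probe. All 9 were among the 14459 genes tested, and their probes were well above background on all 24 arrays. RNA came from mouse embryonic fibroblasts and was measured on 1-colour Agilent arrays, 1 sample per array. The treated groups were PERKKO (no PERK kinase), ATF4KO (no ATF4), eIF2a A/A (homozygous for eIF2α that cannot be phosphorylated at the regulatory serine) and WT cells given tunicamycin (Tun, 2 µg per mL) for 12 h by their labels, and Fv2E-PERK cells given AP for 12 h. Each had an untreated (UT) group of the same genotype. WT groups held 4 arrays each and the other 8 groups 2 each. The shared protocol names 12 or 24 h of tunicamycin, and the labels give AP only by that abbreviation and without a dose. Nothing in the labels ties replicates to separate cultures, so the p-values rest on a spread between arrays that may be technical.

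Tunicamycin blocks N-glycosylation, so that proteins misfold in the ER. IRE1, the product of Ern1, is a kinase and endonuclease of the ER membrane that removes an intron from Xbp1 mRNA in the cytosol. The spliced mRNA encodes a transcription factor for ER folding, transport and degradation genes, and active IRE1 also cuts other ER-bound mRNAs, which is known as RIDD. ATF6 and ATF6B move from the ER to the Golgi under stress. There the site-1 protease (Mbtps1) and the site-2 protease (Mbtps2) cut them and free a transcription factor domain. CREB3, CREB3L1 and CREB3L2 are built alike and cut by the same proteases, which also release the SREBP factors of sterol synthesis. PERK phosphorylates eIF2α, which raises translation of ATF4, and Fv2E-PERK is a fused PERK kinase that can be switched on by a dimerizing compound without ER stress. The comparisons ask how far the mRNA levels of these sensors follow the PERK arm. The arrays measure total mRNA per probe, so splicing of Xbp1 and cleavage of the membrane-bound factors were not seen.

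Levels are log2 of the processed spot intensity minus the 75th percentile of the array, so 0 is the level of that percentile, and levels of different genes cannot be set against each other. The arrays fell into 3 scan runs. Run 1 held WT replicates 1 and 2 with ATF4KO, run 2 held WT replicates 3 and 4 with PERKKO, and run 3 held eIF2a A/A and Fv2E-PERK, whose levels were therefore not set against WT. By their file names the WT cells of runs 1 and 2 belonged to different lines. Xist was well above background on the 4 WT arrays of run 1 and on none of run 2, so a difference between these runs may be one of cell lines, and the 2 cannot be told apart. Every PERKKO array had Xist, and none the sex-linked gene Ddx3y, well above background, while WT arrays of run 2 were the reverse. Mbtps2 lies on the X chromosome, and the part of this difference in its PERKKO results was not tested. In run 1 slide and treatment cannot be told apart, since 1 slide held the treated and another the untreated arrays. For untreated PERKKO replicate 2 the name of the file speaks of 24 h mock treatment and the label does not. The deletion in ATF4KO was visible: Atf4 read -4.27 and 0.01 in treated and 2.79 and -0.05 in untreated ATF4KO cells, against 8.63 to 9.14 in treated and 7.20 to 7.65 in untreated WT cells. Eif2ak3, the PERK gene, read 0.00 and 0.28 in treated and 0.00 and -0.47 in untreated PERKKO cells, and the untreated level was lower than in WT cells (limma, adjusted p = 0.00102). Its probe was still well above background, and whether it lies in the deleted part is not known here. Of 12 fibroblast markers, 11 were well above background in PERKKO and 10 to 12 in WT cells. Their summed signal, relative to the 75th percentile, was 290 to 330 in treated and 228 to 232 in untreated PERKKO cells, against 522 to 692 and 816 to 1220 in WT cells. The summed signal of 6 epithelial markers was 55 to 61.1 in treated and 48.9 to 60.8 in untreated PERKKO cells, against 2.12 to 2.52 and 2.28 to 4.48 in WT cells. The part of this difference in the PERKKO results below was not tested.

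The promoters of 7 of the 9 genes were matched in the RefSeq table of GRCm38.p6, all but those of Atf6 and Creb3l1. Windows of 250 bases upstream of the start were searched on both strands for 5 motifs. They were the ER stress elements ERSE (CCAAT and CCACG with 9 bases between them) and ERSE-II (ATTGG and CCACG with 1 base between them), which ATF6 is known to bind, the unfolded protein response element UPRE (TGACGTGG), the core TGACGT, which every UPRE also contains, and the element CARE (TTNCATCA) that ATF4 is known to bind. Of all 32851 windows in the table, 0.113% held an ERSE, 0.0304% an ERSE-II, 0.563% a UPRE, 6.47% the core and 3.45% a CARE. Among the 7 matched genes 1 held any of them, Creb3l2, with TGACGT starting at position -196 from the gene start. The Xbp1 window, shown because Xbp1 was called higher in all 5 genotypes, held none of these letters. The windows of Herpud1, the gene whose levels were most like those of Xbp1, and of Hspa5, which encodes the ER chaperone BiP and was chosen after its values were seen, are set beside it. Capitals mark motif matches: CARE and then ERSE-II in Herpud1, at -112 and -52, and TGACGT and then ERSE in Hspa5, at -157 and -65.
Xbp1, chr11:5520391-5520640, plus strand: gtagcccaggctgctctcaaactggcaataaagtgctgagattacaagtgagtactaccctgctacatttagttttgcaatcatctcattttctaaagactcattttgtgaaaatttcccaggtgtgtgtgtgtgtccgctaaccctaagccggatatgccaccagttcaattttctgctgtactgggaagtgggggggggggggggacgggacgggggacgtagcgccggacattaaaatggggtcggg
Herpud1, chr8:94386179-94386428, plus strand: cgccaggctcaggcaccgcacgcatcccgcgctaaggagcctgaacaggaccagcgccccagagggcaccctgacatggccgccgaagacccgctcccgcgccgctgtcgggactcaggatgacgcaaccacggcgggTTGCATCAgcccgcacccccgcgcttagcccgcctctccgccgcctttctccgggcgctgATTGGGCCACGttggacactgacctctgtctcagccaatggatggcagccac
Hspa5, chr2:34771840-34772089, plus strand: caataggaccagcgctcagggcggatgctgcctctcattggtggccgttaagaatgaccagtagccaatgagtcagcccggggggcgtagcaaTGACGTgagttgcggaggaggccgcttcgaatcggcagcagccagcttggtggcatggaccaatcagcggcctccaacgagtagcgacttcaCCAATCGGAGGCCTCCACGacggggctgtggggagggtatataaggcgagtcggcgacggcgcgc
A match is a description of the letters in these windows and shows no binding.

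Tunicamycin raised 1 of the 9 genes and lowered none in PERKKO cells, against 2.28% of all tested genes called in either direction. It raised 2 and lowered 1 in ATF4KO cells (29% of all genes called), and raised 2 and lowered none in eIF2a A/A cells (4.9% called). AP raised 1 and lowered none in Fv2E-PERK cells (4.07% called). In WT cells 7 of the 9 genes rose with tunicamycin and 1 fell, against 37.5% of all tested genes called. Atf6 and Xbp1 had the largest WT increases of the 9, at 1.87 ± 0.18 and 1.81 ± 0.11 (log2 difference ± SE, n = 4 per group). They were followed by Mbtps2, Ern1, Creb3l2, Atf6b and Creb3, while Creb3l1 fell and Mbtps1 did not pass the test. The median change of the 9 genes was 0.06 in PERKKO, 0.29 in ATF4KO, 0.32 in eIF2a A/A, 0.07 in Fv2E-PERK and 0.79 in WT cells, and that of all tested genes was 0.02, -0.04, 0.01, 0.08 and 0.07. Groups of 2 arrays have less power than the WT groups of 4, so these counts do not by themselves show smaller responses. The differences of the responses were tested and are given after the single genes. Within run 1, 5 of the 9 rose and 1 fell in WT cells (37% of all genes called), and within run 2, 5 rose and none fell (21.2% called). limma called none of the 9 for a difference between the runs (7.88% of all genes called), with the lowest unadjusted p values at 0.00541 for Creb3l1 and 0.05 for Mbtps2. Where arrays of 2 groups are said below not to overlap, the same held for 46.8% of all tested genes in PERKKO, 54.9% in ATF4KO, 68.4% in eIF2a A/A, 73% in Fv2E-PERK and 21.8% in WT cells.

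**Figure D1:**
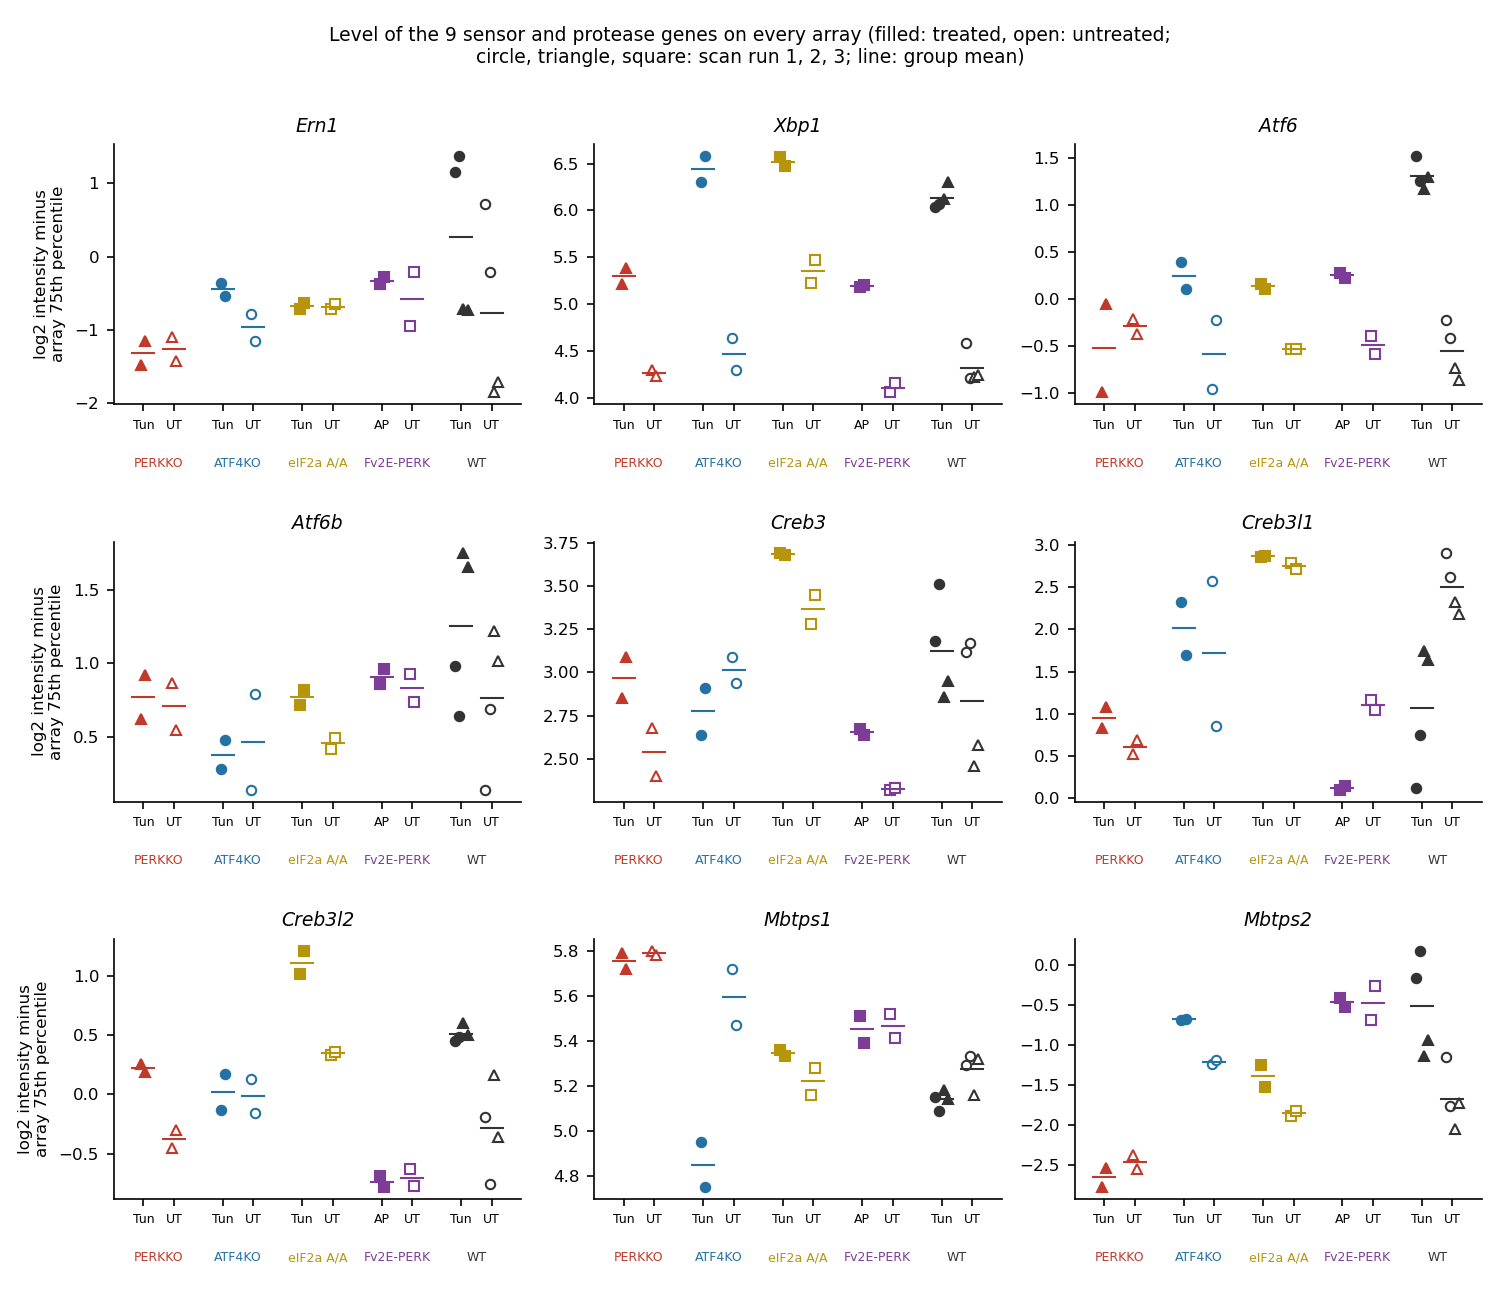
Level of each of the 9 genes on every array, as log2 intensity minus the array's 75th percentile, with filled symbols for treated and open symbols for untreated cells, symbol shape for scan run and a line for the group mean. Xbp1 lay higher in the treated than in the untreated arrays of all 5 genotypes, while Ern1 in WT cells split by scan run.

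Xbp1 was the gene of the 9 that was called higher in every genotype, PERK-deficient cells included. Its level with tunicamycin was 5.22 and 5.39 in PERKKO, 6.30 and 6.58 in ATF4KO, 6.57 and 6.47 in eIF2a A/A and 6.04, 6.07, 6.12 and 6.30 in WT cells. The untreated levels were 4.30 and 4.24 in PERKKO, 4.64 and 4.30 in ATF4KO, 5.23 and 5.47 in eIF2a A/A and 4.59, 4.21, 4.22 and 4.25 in WT cells. With AP it read 5.18 and 5.21 in Fv2E-PERK cells, against 4.06 and 4.16 without. No treated array overlapped the untreated arrays of its genotype. The log2 rise was 1.04 ± 0.16 in PERKKO (limma, adjusted p = 0.00219), 1.97 ± 0.16 in ATF4KO (adjusted p = 1.65e-06) and 1.17 ± 0.16 in eIF2a A/A cells (adjusted p = 0.00067). It was 1.81 ± 0.11 in WT cells (adjusted p = 1.35e-08), a 3.52-fold increase. With AP and no tunicamycin, Xbp1 rose by 1.09 ± 0.16 in Fv2E-PERK cells (adjusted p = 0.00139). No cells without Fv2E-PERK were given AP, so an effect of the switched-on kinase cannot be told apart from another effect of AP. These AP and tunicamycin responses come from different agents and cells, and the difference between them was not tested. In a fit on only the groups compared, the increase did not pass in PERKKO (adjusted p = 0.148) or ATF4KO cells (adjusted p = 0.158), with ranges of 0.00024 to 0.148 and 1.33e-07 to 0.158 over the alternatives that leave out no single array.

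Ern1, the gene of IRE1 itself, was called higher with tunicamycin in WT cells and not in any mutant. In PERKKO cells Ern1 read -1.47 and -1.15 with and -1.09 and -1.42 without tunicamycin, a change of -0.05 with a 95% interval of -0.61 to 0.50. The eIF2a A/A values were -0.72 and -0.63 with and -0.72 and -0.65 without, a change of 0.02 ± 0.26. Treated and untreated arrays overlapped in both. The level in ATF4KO cells was -0.36 and -0.53 with and -0.78 and -1.15 without tunicamycin, and the response, 0.52 ± 0.26, was not called (adjusted p = 0.15). AP gave -0.38 and -0.28 in Fv2E-PERK cells, against -0.95 and -0.21 without, where the arrays overlapped (0.25 ± 0.26, adjusted p = 0.721). The WT arrays of replicates 1 to 4 read 1.15, 1.37, -0.72 and -0.73 with and 0.71, -0.21, -1.85 and -1.71 without tunicamycin. The WT arrays of run 1 lay above those of run 2 in both conditions, so treated and untreated groups overlapped over the runs but not within either of them. The WT change was 1.03 ± 0.18 (limma, adjusted p = 0.000447), with 1.01 (adjusted p = 0.00878) within run 1 and 1.05 (adjusted p = 0.0119) within run 2. Untreated WT cells of run 1 and run 2 differed by 2.03 ± 0.27 (adjusted p = 6.53e-05), a larger value than the tunicamycin response itself. Without the run term the WT call was lost (adjusted p = 0.18, with a range of 0.00019 to 0.18 over the alternatives that leave out no single array).

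Genes downstream of XBP1 moved with tunicamycin in every genotype given it. Of 16 listed XBP1 targets, 9 rose in PERKKO (median 0.82), 9 in ATF4KO (median 0.51), 12 in eIF2a A/A (median 0.98) and 15 in WT cells (median 1.25), and none fell. Of all tested genes 1.87%, 12%, 3.08% and 21.2% were called higher, in the same order. Dnajb9, an ER co-chaperone, rose by 1.94 in PERKKO (adjusted p = 2.75e-06), 3.32 in ATF4KO, 2.97 in eIF2a A/A and 3.37 in WT cells (adjusted p = 4.08e-12). Dnajc3, which encodes an ER co-chaperone also known as an inhibitor of PERK, had a change of 0.55 in PERKKO cells that did not pass (adjusted p = 0.0655) and rose by 2.55 in WT cells. Edem1, a lectin of ER-associated degradation, rose by 0.74 in PERKKO (adjusted p = 0.0399) and by 2.11 in WT cells. With AP in Fv2E-PERK cells 1 of the 16 was called, against 4.07% of all tested genes. It was Dnajb9, which rose by 1.00 (adjusted p = 0.00107). The median of the 16 with AP was 0.06, against 0.08 over all genes, while Xbp1 mRNA itself was called higher.

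Of 7 genes listed as RIDD substrates, limma called none in PERKKO cells, where the median was -0.37 and 4 had an unadjusted p under the threshold. Of the 7, 1 rose and 1 fell in ATF4KO cells, and 1 rose and 2 fell in eIF2a A/A cells, against 29% and 4.9% of all tested genes called. Bloc1s1, a widely used RIDD marker, fell by 0.80 in ATF4KO cells (log2 change -0.80, adjusted p = 0.00184), and Scara3, a scavenger receptor, fell by 1.48 in eIF2a A/A cells (adjusted p = 0.036). limma called none with AP in Fv2E-PERK cells (median -0.39), where 4 had an unadjusted p under the threshold. Scara3, which is among the 7, was not well above background on any Fv2E-PERK array, so a fall could not be seen there. In WT cells 6 of the 7 fell with tunicamycin and none rose (median -0.65), against 16.3% of all tested genes called lower. Scara3 fell by 3.37 on the log2 scale there (adjusted p = 1.91e-07) and Col6a1, a collagen chain, had a log2 change of -2.37 (adjusted p = 1.03e-05). Bloc1s1 had a WT change of -0.99 (adjusted p = 7.06e-06), a 1.99-fold decrease. Of 12 fibroblast markers, 7 were also called lower and 1 higher in WT cells (median -1.11), against 1 higher in PERKKO (median 0.46), none in ATF4KO (limma, 1 at an unadjusted p under the threshold) or eIF2a A/A (2 unadjusted), and 1 lower in Fv2E-PERK cells (median -0.72). Pdgfrb is in both lists, and the part of these markers in the RIDD result was not tested. Of 12 partners and regulators of IRE1, 1 rose in PERKKO and 1 in eIF2a A/A cells, and none fell. Of all tested genes 1.87% and 3.08% were called higher there. The partner that rose was Sec63, an ER translocation factor, in both (1.09, adjusted p = 0.00103, and 0.84, adjusted p = 0.00552). In ATF4KO cells none of the 12 rose and 3 fell, against 12% and 17.1% of all tested genes. With AP limma called none of them, with 1 at an unadjusted p under the threshold. In WT cells 3 rose and none fell, against 21.2% and 16.3% of all tested genes. The 3 were Sec63 (1.32, adjusted p = 2.79e-07), Ube2j1, an ER ubiquitin-conjugating enzyme (0.62, adjusted p = 0.000507), and Bax, a pro-apoptotic protein (0.56, adjusted p = 0.0138).

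Atf6 rose with tunicamycin in ATF4KO and WT cells, and its change in PERKKO cells did not pass. With tunicamycin it read -0.99 and -0.05 in PERKKO, 0.39 and 0.11 in ATF4KO, 0.16 and 0.11 in eIF2a A/A and 1.52, 1.26, 1.17 and 1.30 in WT cells. Untreated levels were -0.21 and -0.37 in PERKKO, -0.95 and -0.22 in ATF4KO, -0.53 and -0.53 in eIF2a A/A and -0.22, -0.41, -0.73 and -0.86 in WT cells. All treated WT arrays lay above 1, and no untreated WT, PERKKO or ATF4KO array reached that level. The PERKKO change was -0.23 ± 0.26 (limma, adjusted p = 0.86), with a 95% interval of -0.78 to 0.32. Within slides it was 0.16 on slide 3 and -0.63 on slide 4, from 1 pair of arrays each. ATF4KO cells changed by 0.84 ± 0.26 (adjusted p = 0.0241), eIF2a A/A cells by 0.66 ± 0.26 (adjusted p = 0.185) and WT cells by 1.87 ± 0.18 (adjusted p = 1.52e-06). With AP the Fv2E-PERK arrays read 0.28 and 0.23, against -0.39 and -0.58 without, and the change of 0.74 ± 0.26 did not pass (adjusted p = 0.141). These SE and p-values rest on 1 spread per gene shared by all groups. The median SD over genes was 0.209 in treated and 0.314 in untreated ATF4KO cells, against 0.0671 and 0.0895 in eIF2a A/A cells. In a fit on only the groups compared, the ATF4KO change did not pass (adjusted p = 0.32). The eIF2a A/A and AP changes passed in such fits, with adjusted p = 0.0167 and 0.0168. Over the alternatives that leave out no single array their ranges were 0.0167 to 0.363 and 0.0168 to 0.31. The ATF4KO call was lost without treated ATF4KO replicate 1 (0.70) or untreated ATF4KO replicate 1 (0.47), and over the alternatives that leave out no single array its adjusted p ran between 0.00269 and 0.32.

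Atf6b, the paralogue of Atf6, is known as a weaker activator. Its WT arrays read 0.98, 0.64, 1.75 and 1.66 with and 0.14, 0.69, 1.22 and 1.02 without tunicamycin, so the groups overlapped. The WT change was 0.50 ± 0.15 (adjusted p = 0.0197), and no other genotype was called, with changes between -0.09 in ATF4KO and 0.32 in eIF2a A/A cells. The call was lost in 4 of 15 alternatives that leave out no single array, with adjusted p between 0.0133 and 0.174 over all of them. Leaving out treated WT replicate 1 or 3 or untreated WT replicate 1 or 4 ended the WT call, with changes of 0.40 to 0.46.

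Listed ATF6 targets rose in every genotype given tunicamycin. Of 14, 11 rose in PERKKO (median 0.98), 13 in ATF4KO (median 2.52), 14 in eIF2a A/A (median 1.68) and 14 in WT cells (median 3.22), and none fell. The shares of all tested genes called higher were 1.87%, 12%, 3.08% and 21.2%, in the same order. Herpud1, an ER membrane protein of ER-associated degradation, read 4.30 and 4.22 in PERKKO, 5.06 and 5.42 in ATF4KO, 5.01 and 5.05 in eIF2a A/A and 6.37, 6.51, 7.05 and 7.06 in WT cells with tunicamycin. Untreated levels were 2.00 and 2.42 in PERKKO, 1.87 and 1.53 in ATF4KO, 2.85 and 3.08 in eIF2a A/A and 2.50, 2.31, 3.0 and 3.09 in WT cells. Herpud1 thus rose with tunicamycin in all 4 genotypes without overlap, by 2.05, 3.54, 2.06 and 4.03 in the same order (adjusted p at most 4.35e-06). Sdf2l1, an ER chaperone partner, rose by 0.93 in PERKKO (adjusted p = 0.0189), 4.77 in ATF4KO, 2.59 in eIF2a A/A and 4.58 in WT cells. Derl3, a component of ER-associated degradation, had the largest WT increase of the list, at 7.81 (adjusted p = 1.51e-11). It was not well above background on any ATF4KO or eIF2a A/A array, so no fold is given there, although it is counted among the 14 in eIF2a A/A cells. With AP in Fv2E-PERK cells Herpud1 alone was called, reading 4.39 and 4.36 with and 2.65 and 2.58 without (1.76, adjusted p = 1.37e-05). The median of the 14 with AP was 0.12, against 0.08 over all tested genes, of which 4.07% were called.

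**Figure D2:**
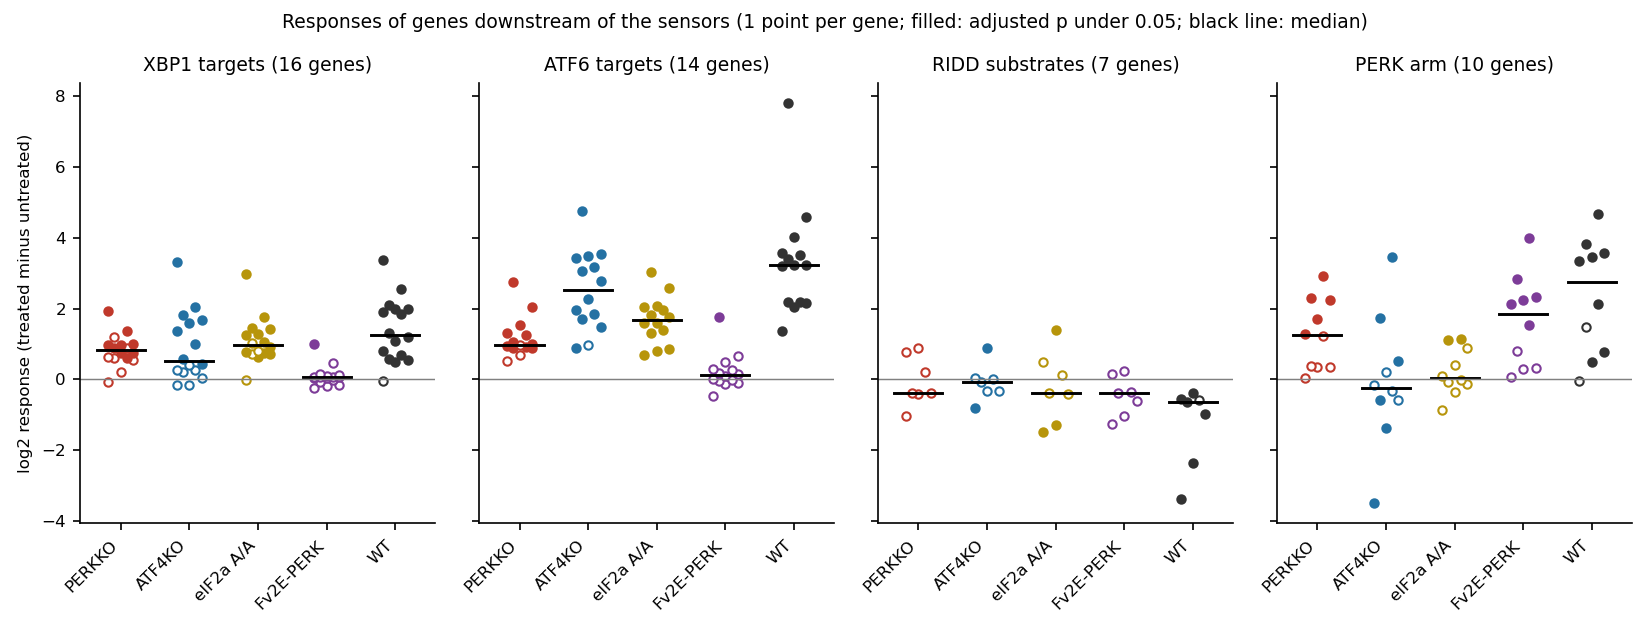
Log2 response of each listed XBP1 target, ATF6 target, RIDD substrate and PERK-arm gene in each genotype, treated minus untreated, with 1 point per gene, filled where adjusted p was under 0.05, and a black line at the median. The medians of the ATF6 targets were 0.98 in PERKKO, 2.52 in ATF4KO, 1.68 in eIF2a A/A, 0.12 in Fv2E-PERK and 3.22 in WT cells.

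The proteases that cut ATF6 and the CREB3 family were measured next. Mbtps2, the site-2 protease gene, read -2.77 and -2.53 with and -2.37 and -2.55 without tunicamycin in PERKKO cells, a change of -0.19 ± 0.23 (limma, adjusted p = 0.875). ATF4KO cells had -0.68 and -0.67 with and -1.23 and -1.19 without tunicamycin (0.53 ± 0.23, adjusted p = 0.0897). The eIF2a A/A values were -1.25 and -1.52 with and -1.88 and -1.82 without (0.46 ± 0.23, adjusted p = 0.311). None of these changes passed the test, although the arrays of ATF4KO and eIF2a A/A cells did not overlap. The AP response was 0.01, with arrays at -0.41 and -0.52 with and -0.69 and -0.26 without AP. WT cells read -0.16, 0.18, -1.13 and -0.94 with and -1.15, -1.76, -2.04 and -1.72 without tunicamycin. Treated and untreated WT arrays did not overlap within either run, and Mbtps2 rose by 1.16 ± 0.16 (adjusted p = 4.62e-05). A second, dimmer Mbtps2 probe, well above background on 20 of 24 arrays and on none of the 4 PERKKO arrays, rose by 0.70 ± 0.23 in WT cells (adjusted p = 0.0234).

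Mbtps1, the site-1 protease gene, fell with tunicamycin in ATF4KO cells, where it read 4.95 and 4.75 with and 5.72 and 5.47 without (-0.74 ± 0.12, adjusted p = 0.000305). In PERKKO cells it read 5.79 and 5.72 with and 5.80 and 5.78 without, and in eIF2a A/A and Fv2E-PERK cells the changes were 0.12 and -0.01. Its WT arrays read 5.15, 5.09, 5.18 and 5.14 with and 5.29, 5.33, 5.16 and 5.32 without tunicamycin (-0.13 ± 0.08, adjusted p = 0.23). The WT change was called with quantile normalization (-0.30, adjusted p = 0.0386) and with the percentile over probes well above background on all arrays (-0.26, adjusted p = 0.0382). The dimmer Mbtps1 probe did not pass in ATF4KO cells (-0.32 ± 0.26, adjusted p = 0.393), and quantile normalization gave -0.40 (adjusted p = 0.056). Over the alternatives that leave out no single array the adjusted p ran between 0.000103 and 0.393.

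SREBP factors are cut by the same proteases. limma called none of 9 listed genes of that pathway in PERKKO (median -0.13), eIF2a A/A (median -0.13) or Fv2E-PERK cells (median -0.39), where unadjusted p was under the threshold for 2, 0 and 1 of them. In ATF4KO cells 6 of the 9 fell and none rose, with a median of -2.37, against 17.1% of all tested genes called lower. Hmgcs1, an enzyme of sterol synthesis, fell by 3.03 in these cells (adjusted p = 0.000396). In WT cells 1 rose and 3 fell with tunicamycin (median -0.47), against 37.5% of all tested genes called. Hmgcs1 fell by 1.15 there (adjusted p = 0.016), Insig2, an ER anchor of SREBP, fell by 0.47 (adjusted p = 0.00924), and Scap, the SREBP escort protein, rose by 0.48 (adjusted p = 0.00177). Treated and untreated WT arrays overlapped for each of these genes. Hmgcs1 read 3.90, 3.83, 3.84 and 3.95 with and 3.39, 5.01, 5.81 and 5.93 without tunicamycin in WT replicates 1 to 4. The WT medians of the 9 listed pathway genes were 0.09 in run 1 and -1.12 in run 2.

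The 3 CREB3 family members moved in different directions in WT cells. Creb3l2, known for its role in secretion in cartilage, read 1.01 and 1.21 with and 0.33 and 0.36 without tunicamycin in eIF2a A/A cells, a rise of 0.77 ± 0.20 (limma, adjusted p = 0.0359). The PERKKO values of 0.26 and 0.19 with and -0.45 and -0.30 without tunicamycin did not overlap, and the change of 0.60 ± 0.20 did not pass (adjusted p = 0.155). ATF4KO arrays overlapped, at -0.13 and 0.17 with and 0.13 and -0.16 without tunicamycin (0.03, adjusted p = 0.931). With AP the level was -0.69 and -0.78, against -0.63 and -0.77 without. In WT cells Creb3l2 read 0.45, 0.48, 0.60 and 0.50 with and -0.19, -0.75, 0.16 and -0.36 without tunicamycin and rose by 0.79 ± 0.14 (adjusted p = 0.000365). All treated WT arrays lay above all untreated ones. The eIF2a A/A call was lost when any of its 4 arrays was left out (changes of 0.67 to 0.87, adjusted p between 0.108 and 0.287).

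Creb3l1, a regulator of collagen secretion in bone, was the member that fell in WT cells. In PERKKO cells it read 0.83 and 1.08 with and 0.52 and 0.69 without tunicamycin. The ATF4KO arrays lay far apart without tunicamycin, at 2.57 and 0.86, and read 2.32 and 1.70 with it. The eIF2a A/A values were 2.86 and 2.87 with and 2.79 and 2.72 without. None of these changes passed, at 0.35 ± 0.49, 0.29 ± 0.49 and 0.11. With AP Creb3l1 read 0.10 and 0.15 in Fv2E-PERK cells, against 1.16 and 1.04 without. The change of -0.98 ± 0.49 did not pass (adjusted p = 0.336) although the arrays did not overlap, and it passed in a fit on only the groups compared (adjusted p = 0.00968). The WT arrays read 0.12, 0.75, 1.74 and 1.64 with and 2.90, 2.62, 2.32 and 2.18 without tunicamycin, with no overlap (-1.44 ± 0.35, adjusted p = 0.00388). Run 1 gave -2.33 ± 0.38 (adjusted p = 0.000278), run 2 gave -0.56 ± 0.38 (adjusted p = 0.352), and the difference of -1.77 ± 0.54 between the runs did not pass (adjusted p = 0.0611).

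Creb3, a widely expressed member, changed least of those called in WT cells, by 0.29 ± 0.10 (adjusted p = 0.0352). Its WT arrays read 3.18, 3.51, 2.86 and 2.95 with and 3.12, 3.17, 2.46 and 2.58 without tunicamycin, and the groups overlapped. With the replicate number as a block the call was lost (adjusted p = 0.0879), as it was in 9 of 15 alternatives, over which adjusted p ran between 0.0283 and 0.295, and without treated WT replicate 2, 3 or 4 or untreated WT replicate 1, 3 or 4 (changes of 0.25 to 0.30). The changes in the other genotypes were 0.43 ± 0.15 in PERKKO, -0.24 in ATF4KO, 0.32 in eIF2a A/A and 0.33 in Fv2E-PERK cells, and none passed (adjusted p = 0.176, 0.225, 0.265 and 0.255).

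Relatives of the family showed no common direction. Of 7 tested relatives of CREB3 and ATF6, 2 were called higher and 1 lower in WT cells, against 37.5% of all tested genes called. Creb3l4 rose by 0.49 (adjusted p = 0.0394) and Creb1, the cAMP-responsive factor, rose by 0.44 (adjusted p = 0.00234). The gene called lower, the liver-enriched member Creb3l3 (adjusted p = 0.047), was well above background on only 1 of 4 treated and 2 of 4 untreated arrays, all of run 1, so no size is given. Creb1 also rose in PERKKO cells (0.61, adjusted p = 0.0294) and fell by 0.46 in ATF4KO cells (adjusted p = 0.0204). Of 9 listed CREB3 family targets, 3 rose and 2 fell in WT cells (median 0.14), against the same 37.5%. Sec23b, a coat protein of ER-to-Golgi transport, rose by 0.68 (adjusted p = 0.00032), Col1a1, a collagen chain, fell by 1.00 (adjusted p = 0.00419), and Golga2, a Golgi matrix protein, fell by 0.52 (adjusted p = 0.000891). Sec23b was also the 1 target called in eIF2a A/A cells (0.74, adjusted p = 0.0173). In ATF4KO cells 1 rose and 1 fell, against 29% of all tested genes called. The target that fell was Golga2 (log2 change -0.57, adjusted p = 0.00759). limma called none in PERKKO or Fv2E-PERK cells, where 1 and 3 had an unadjusted p under the threshold.

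**Figure D3:**
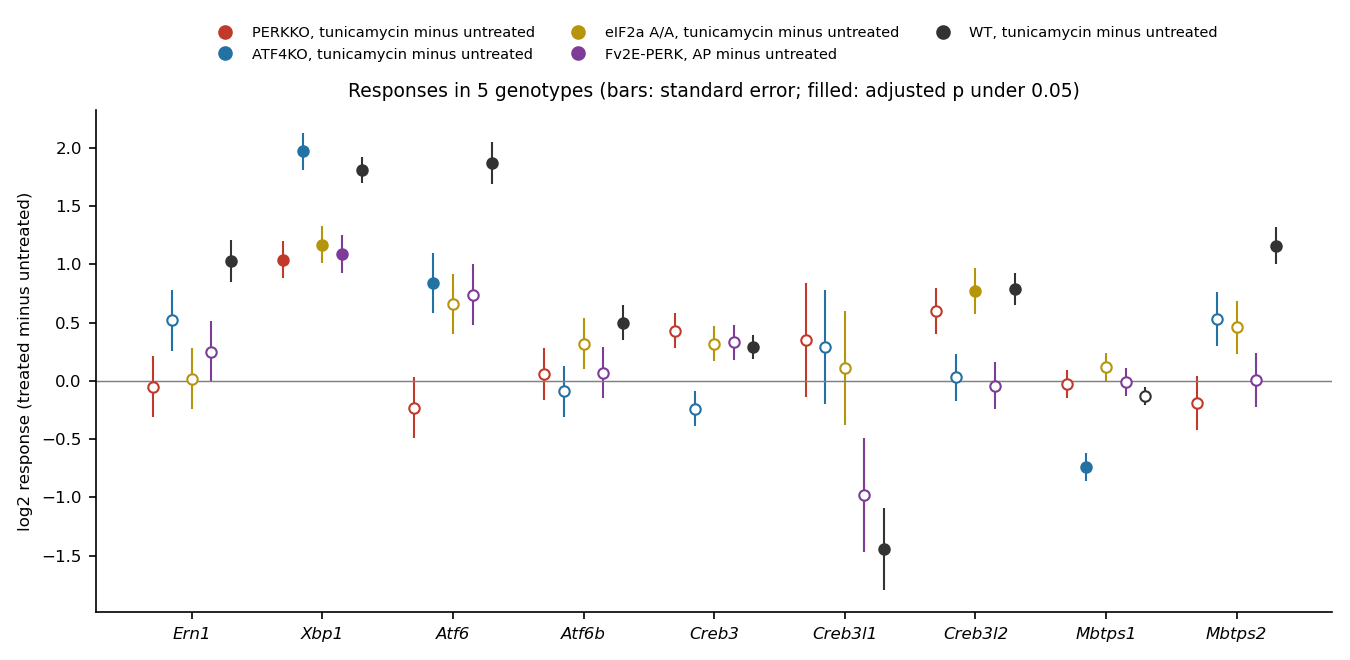
Log2 response of each of the 9 genes in the 5 genotypes, tunicamycin or AP minus untreated, with standard errors and filled symbols where adjusted p was under 0.05. Xbp1 is filled in all 5 genotypes, between 1.04 and 1.97, while Ern1, Creb3l1 and Mbtps2 are filled for WT cells only.

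The difference of each mutant's response from the WT response was tested next. Genotype cannot be told apart from cell line in any of these comparisons, nor from scan run in that of eIF2a A/A cells. The 3 comparisons share the WT arrays, so they are not independent of each other. In PERKKO cells 4 of the 9 responses were called smaller than in WT cells and none larger, against 13.2% of all tested genes called in either direction. Atf6 differed most, by -2.10 ± 0.32 (limma, adjusted p = 0.000635). Mbtps2 differed by -1.35 ± 0.28 (adjusted p = 0.00525), Ern1 by -1.08 ± 0.32 (adjusted p = 0.0357) and Xbp1 by -0.78 ± 0.20 (adjusted p = 0.0176). The PERKKO increase of Xbp1 was 57.1% of the WT increase on the log2 scale. The Creb3l1 responses differed by 1.80 ± 0.60 and did not pass (adjusted p = 0.0606). Against WT cells of the same run the difference was 0.91 ± 0.54 (adjusted p = 0.383). It passed without treated WT replicate 3 or untreated WT replicate 4 (1.99 and 2.00), with only genes well above background on all arrays (adjusted p = 0.0396) and with the trend and robust options of eBayes (adjusted p = 0.0457). The Atf6 difference kept its call under every alternative and with every single array left out. Untreated Atf6 read -0.21 and -0.37 in PERKKO cells, against -0.73 and -0.86 in WT cells of the same run. Untreated Ern1 read -1.09 and -1.42, against -1.85 and -1.71. The part of these untreated levels in the Atf6 and Ern1 differences was not tested. The Mbtps2 difference was not seen with the dimmer probe (-0.14 ± 0.39, adjusted p = 0.858), which was not well above background in PERKKO cells. Its call was lost in 3 of 16 alternatives that leave out no single array. The others of these were the mean of all probes (-0.74, adjusted p = 0.0895) and no run term (-1.35, adjusted p = 0.0786). Against WT cells of the same run it was -1.04 (adjusted p = 0.0371). The Ern1 call was lost with only WT cells of the same run (-1.10, adjusted p = 0.0923) and without any of the 4 PERKKO arrays, treated WT replicate 2, 3 or 4 or untreated WT replicate 2 or 3, and the Xbp1 call without treated or untreated PERKKO replicate 1 (-0.69 and -0.75). Of 16 alternatives that leave out no single array, 7 ended the Ern1 call and 5 the Xbp1 call, among them normexp (-0.72, adjusted p = 0.102) and quantile normalization (-0.64, adjusted p = 0.0618) for Xbp1.

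In ATF4KO cells 4 of the 9 responses were called lower than in WT cells and 1 higher, against 30.5% of all tested genes. Xbp1 and Ern1 were not among them: the Xbp1 responses differed by 0.16 ± 0.20 with a 95% interval of -0.27 to 0.58, and those of Ern1 by -0.51 (adjusted p = 0.242). Atf6 differed by -1.03 ± 0.32 (adjusted p = 0.0236), Creb3l2 by -0.77 ± 0.24 (adjusted p = 0.0259), Mbtps1 by -0.61 ± 0.14 (adjusted p = 0.00532) and Creb3 by -0.54 ± 0.18 (adjusted p = 0.0331). Against WT cells of the same run Atf6 (-0.86, adjusted p = 0.0829) and Creb3 (-0.44, adjusted p = 0.105) were not called, while Mbtps2 was (-0.93, adjusted p = 0.0219, against -0.62 and 0.103 with WT cells of both runs). Leaving out treated or untreated ATF4KO replicate 2 ended the Atf6 call (-0.89 and -0.66), and leaving out treated or untreated ATF4KO replicate 1 that of Creb3l2 (-0.62 both) and of Creb3 (-0.40 and -0.46), the last also lost without treated WT replicate 4 or untreated WT replicate 3. The Creb3l1 difference of 1.74 ± 0.60 (adjusted p = 0.0391) set a change of 0.29 in ATF4KO cells against -1.44 in WT cells. It was 2.62 (adjusted p = 0.00202) against WT cells of the same run. It was 0.88 without untreated ATF4KO replicate 2 (adjusted p = 0.295) and was also lost without treated ATF4KO replicate 1, treated WT replicate 1 or 2 or untreated WT replicate 1 or 2. The median of all genes was itself shifted here by -0.13, and under quantile normalization, with a shift of 0, Xbp1 was called higher (0.86, adjusted p = 0.00908) while Creb3 (-0.20) and Mbtps1 (-0.11) lost their calls. With the percentile over probes well above background, where the median of all genes was 0.22, Atf6 (-0.68), Creb3l2 (-0.42), Mbtps1 (-0.26) and Creb3 (-0.19) lost theirs, and the dimmer Mbtps1 probe gave -0.17 (adjusted p = 0.726).

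In eIF2a A/A cells 3 of the 9 responses were called smaller than in WT cells and none larger, against 18.2% of all tested genes. They were Atf6 (-1.20 ± 0.32, adjusted p = 0.0156), Ern1 (-1.01 ± 0.32, adjusted p = 0.0386) and Xbp1 (-0.64 ± 0.20, adjusted p = 0.0343). These 3 genes were also called smaller in PERKKO cells. In eIF2a A/A cells Xbp1 read 6.57 and 6.47 with and 5.23 and 5.47 without tunicamycin. Untreated Fv2E-PERK cells of the same run read 4.06 and 4.16. The part of the untreated level in the smaller Xbp1 rise was not tested. The Creb3l2 responses differed by -0.03, with a 95% interval of -0.54 to 0.49. Leaving out any of the 4 eIF2a A/A arrays ended the Atf6 and Ern1 calls, with changes of -1.23 to -1.18 and -1.06 to -0.97, and leaving out treated replicate 1 or 2 or untreated replicate 2 ended that of Xbp1 (-0.69, -0.59 and -0.52). The Ern1 call was also lost without treated WT replicate 2, 3 or 4 or untreated WT replicate 2 or 3, and the Xbp1 call without treated WT replicate 3 or 4 or untreated WT replicate 2, 3 or 4. Of 13 alternatives that leave out no single array, 7 ended the Xbp1 call, among them normexp (-0.58, adjusted p = 0.167), quantile normalization (-0.55, adjusted p = 0.0903) and the percentile over probes well above background (-0.51, adjusted p = 0.087). Of the same 13, 6 ended the Ern1 call (adjusted p up to 0.565, without the run term) and 1 the Atf6 call (the replicate block, adjusted p = 0.052).

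**Figure D4:**
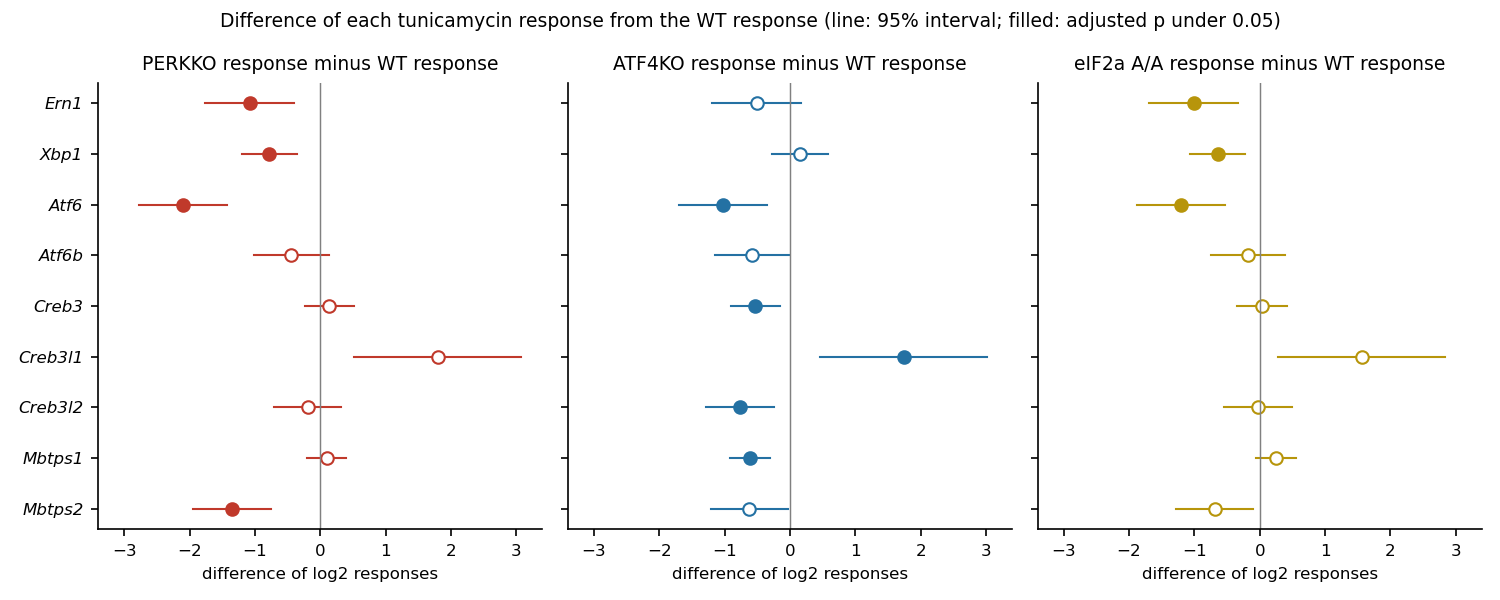
Difference of each gene's tunicamycin response in PERKKO, ATF4KO and eIF2a A/A cells from that in WT cells, on the log2 scale, with 95% intervals and filled symbols where adjusted p was under 0.05. Atf6 is filled in all 3 panels, at -2.10, -1.03 and -1.20, and the interval of Xbp1 crosses 0 in the ATF4KO panel alone.

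The downstream lists can be read beside the sensors. Responses of 13 of the 14 ATF6 targets were called smaller in PERKKO than in WT cells (median -2.24) and of 11 in eIF2a A/A cells (median -1.35). In ATF4KO cells 3 were smaller and 1 was larger (median -0.42), against 30.5% of all tested genes called. Derl3, which is among the 14, was not well above background on any ATF4KO or eIF2a A/A array. Sdf2l1 differed by -3.65 in PERKKO (adjusted p = 1.1e-06), by -1.99 in eIF2a A/A (adjusted p = 6.74e-05) and by 0.20 in ATF4KO cells (adjusted p = 0.555). Of the 16 XBP1 targets, 7 responses were smaller in PERKKO (median -0.38) and 7 in ATF4KO cells (median -0.50), and none was larger. For eIF2a A/A cells 5 were smaller and 1 was larger (median -0.28). Responses of RIDD substrates were called higher than in WT cells for 5 of 7 in PERKKO (median 1.36), 3 in ATF4KO (median 0.67) and 4 in eIF2a A/A cells (median 1.09), and none was called lower. The 12 fibroblast markers had median differences of 1.76 in PERKKO (4 called higher), 0.72 in ATF4KO (2 higher, 1 lower) and 1.56 in eIF2a A/A cells (3 higher, 1 lower), and their part in the RIDD differences was not tested. Of 12 IRE1 partners, 7 responses were lower in ATF4KO than in WT cells (median -0.74), against 19.6% of all tested genes. limma called none of the 12 in PERKKO or eIF2a A/A cells, where 1 and 4 had an unadjusted p under the threshold. The median difference over all genes was -0.05 for PERKKO, -0.13 for ATF4KO and -0.06 for eIF2a A/A cells. For ATF4KO cells it became 0 with quantile normalization and 0.22 with the percentile over probes well above background on all arrays. The part of the scaling in the ATF4KO list counts was not tested. In untreated PERKKO cells 5 of the 7 RIDD substrates were already called lower than in WT cells and none higher (median -0.96). Of the 16 XBP1 targets 10 were lower and none higher there. Of the 14 ATF6 targets 9 were lower and 2 higher, against 24.8% and 16.3% of all tested genes. The part of these untreated levels in the response differences was not tested.

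The PERK arm itself was measured beside the sensors. Of 10 listed genes, tunicamycin raised 5 and lowered none in PERKKO (median 1.25), raised 3 and lowered 3 in ATF4KO (median -0.24), raised 2 and lowered none in eIF2a A/A (median 0.04), and raised 8 and lowered none in WT cells (median 2.74). Over all tested genes 1.87%, 12%, 3.08% and 21.2% were called higher, in the same order, and 17.1% were called lower in ATF4KO cells. The list includes Atf4, the deleted gene of ATF4KO cells, so the ATF4KO count and median take in its remaining signal. Atf4 was well above background on 1 of 2 treated and 2 of 2 untreated ATF4KO arrays. Ddit3, the gene of the pro-apoptotic factor CHOP, rose by 1.27 in PERKKO (adjusted p = 0.0021), 3.47 in ATF4KO, 1.13 in eIF2a A/A (adjusted p = 0.00366) and 4.67 in WT cells. Trib3, a pseudokinase induced by ATF4, rose by 2.24 in PERKKO, 1.74 in ATF4KO and 3.56 in WT cells, and its change of -0.14 in eIF2a A/A cells did not pass (adjusted p = 0.89). Asns, an amino acid synthesis enzyme, rose by 2.29 in PERKKO and 2.13 in WT cells, and fell by 1.38 in ATF4KO cells (adjusted p = 0.000834). With AP 6 of the 10 rose and none fell (median 1.83), against 2.79% of all tested genes called higher. Among those that rose were Trib3 (4.0), Chac1, a glutathione-degrading enzyme (2.84), Ddit3 (2.32), Atf3, a stress transcription factor (2.25), and Ppp1r15a, an eIF2α phosphatase subunit (2.12). Beside these, Xbp1 was the 1 of the 9 sensor and protease genes called with AP.

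Untreated cells were compared for PERKKO and ATF4KO, the genotypes that share a scan run with WT arrays. Genotype cannot be told apart from cell line in these comparisons either. In PERKKO cells 1 of the 9 was higher and 1 lower than in WT cells, against 41.1% of all tested genes called. Creb3l1 was lower by 2.09 on the log2 scale (-2.09 ± 0.46, limma, adjusted p = 0.00184) and Mbtps1 was higher by 0.52 ± 0.11 (adjusted p = 0.0013), a call lost with its dimmer probe (0.47, adjusted p = 0.143). Mbtps2 was not called (-0.43, adjusted p = 0.123), but was called lower against WT cells of the same run (-0.58, adjusted p = 0.0331), with quantile normalization (-0.66, adjusted p = 0.0254), with the mean of all its probes (-0.85, adjusted p = 0.00428) and with its dimmer probe (-1.28, adjusted p = 0.00284), which was not well above background in PERKKO cells. Atf6 (0.42, adjusted p = 0.179) and Ern1 (0.51, adjusted p = 0.109) were not called in PERKKO cells. With the percentile over probes well above background both were called higher (0.65 and 0.74, adjusted p = 0.0222 and 0.0272). The same held with terms for the scan session, added after the data were seen (0.78 and 0.68, adjusted p = 0.0151 and 0.0284). Col1a1 and other fibroblast markers were lower in the same cells, with 10 of 12 called lower and 1 higher (24.8% and 16.3% of all tested genes). Of 6 epithelial markers 5 were called higher. Their part in the Creb3l1 difference was not tested, and neither was that of X linkage in the Mbtps2 results. In ATF4KO cells Ern1 was lower than in WT cells by 1.21 (-1.21 ± 0.24, adjusted p = 0.00227), against 21.1% of all tested genes called, and no other member was called. The untreated ATF4KO arrays, at -0.78 and -1.15, lay below the WT arrays of run 1 (0.71 and -0.21). They lay above the WT arrays of run 2 (-1.85 and -1.71), and untreated WT cells of the 2 runs differed by 2.03. The Ern1 difference was not called without the run term (-0.20, adjusted p = 0.918), and over the alternatives that leave out no single array adjusted p ran between 0.000449 and 0.918.

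The genes whose levels were most like those of each member called in the WT response were taken over the 24 arrays after each genotype's mean within its scan run had been subtracted. The arrays share treatment and slide, so these correlations are a description. For Xbp1 they were Herpud1 (Pearson r = 0.986), Dnajb9 (0.974) and Sil1 (0.973). For Atf6 they were Nudt6 (0.962), Sft2d2 (0.955) and Phkg2 (0.948), and for Creb3l1 Naprt (0.958), Clmp (0.957) and Rcn3 (0.953). Creb3l2 was most like Slc30a7 (0.929), Glmp (0.904) and Mydgf (0.892), Mbtps2 most like Uprt (0.915), Slc35c2 (0.915) and Zbtb43 (0.914), and Ern1 most like Mea1 (0.905), Slc25a28 (0.9) and Man1b1 (0.898). Atf6b was most like Usp32 (0.889), Oxr1 (0.879) and Asah1 (0.879), and Creb3 most like Rit1 (0.876), Gpr85 (0.869) and Ptdss1 (0.863). Among the 9 themselves Ern1 and Mbtps2 had the highest correlation (0.88), followed by Atf6 with Mbtps2 (0.84) and Xbp1 with Atf6 (0.83), and Atf6 with Creb3l1 the lowest (-0.66).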

How the data were processed

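Cy3-labelled total RNA was hybridised to 24 arrays. The software was Agilent Feature Extraction 10.7.1.1, as the submitters' processing notes and the file headers give it. The deposited processed signal is a linear intensity after background subtraction, per the file headers, with no normalization between arrays. The deposited flags, coded 0 or 1, are a score of whether a spot was well above background, saturated or an outlier, per the file headers. The authors' deposited table holds log2 values, centred per probe on a baseline that is unknown. 99.3% of these matched the scanner values within 0.001 after that centring and a shift per array. Its column medians were 0.39 and -0.32 for treated and -0.19 and 0.31 for untreated PERKKO, 0.49 and -0.06 and -0.19 and -0.25 for ATF4KO, 0.04 and -0.02 and -0.01 and 0.03 for eIF2a A/A, and -0.19 and -0.08 and -0.23 and -0.18 for Fv2E-PERK. For WT they were -0.02, 0.07, -0.12 and -0.24 treated and -0.13, 0.12, -0.21 and -0.22 untreated.

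Each array's 75th percentile of log2 processed signal (111.4 to 417.7 intensity units) over 55681 probes was subtracted from its log2 values, without control spots and outlier flags, and no spot was saturated. Per array 45.1% to 58.2% of probes were well above background. Names came from the probe's accession in a RefSeq table of GRCm38.p6, used for names only. 26631 probes had 1 symbol and 29050 had none. A test needed the gene's brightest probe to be well above background on all arrays of some group, which put 5711 genes aside. The 9 members, the gene lists and the rule for named genes (in each list the 3 called genes with the largest change in WT cells, and any PERK-arm gene) were chosen with earlier results of these data known.

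limma 3.58.1 (lmFit, eBayes, R 4.3.3, statmod 1.5.0) was fitted to all arrays in 1 model of 10 groups with run 2 as a fixed effect, leaving 13 residual and 2.23 prior degrees of freedom. The model with WT split by run gave the values by run. Tests were two-sided, adjusted p is Benjamini-Hochberg over 14459 genes within each comparison, and calls were made under 0.05. The fit was tested on simulated data. The number of arrays limits the precision: the median SD within groups was 0.209 to 0.314 (log2) in run 1 and 0.0573 to 0.15 in runs 2 and 3. The SE of a gene comes from 1 spread shared by all groups and does not show this inequality.

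Deviations of same-numbered WT arrays from their group means correlated at 0.50, 0.36, 0.57 and 0.61, which comes from the scan runs, since the correlations within run 1 and run 2 were -0.01 and 0.04. They were -0.47 in PERKKO, 0.07 in ATF4KO, 0.06 in eIF2a A/A and 0.01 in Fv2E-PERK cells. Alternatives concerned the background, normalization, filter, probes, run, slide and session terms, replicate block, samples in the fit, the authors' values and single arrays left out.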

Additional observations from a re-analysis of the deposited data

Results flagged for a closer look

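A single array stood apart from the other 3 of its group: Xbp1 read 4.59 in untreated WT replicate 1, where the others lay between 4.21 and 4.25. Groups of 4 were tested for such gaps with Dixon's criterion, which chance meets in about 1 of 20 groups.

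Responses that differed between a mutant and WT cells by the test of the difference are listed for a second look. The PERKKO response was below the WT response for Atf6 (-2.10), Mbtps2 (-1.35), Ern1 (-1.08) and Xbp1 (-0.78). The ATF4KO response was below it for Atf6 (-1.03), Creb3l2 (-0.77), Mbtps1 (-0.61) and Creb3 (-0.54), and above it for Creb3l1 (1.74). The eIF2a A/A response was below it for Atf6 (-1.20), Ern1 (-1.01) and Xbp1 (-0.64). All of these share the WT arrays.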

How the results depend on the processing

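Over 1332 values of the 9 genes under alternatives, 1218 kept their direction and call, 84 lost and 30 gained the call, and none reversed. With 1 array left out the counts were 576, 62 and 10 of 648. The arrays' number, signal near background for the dimmer Mbtps2 probe, and the ties of run with WT line and of slide with treatment in run 1 limit the precision. Unless given below, the number of the 9 genes called stayed within 1.5 times its value, and the causes of the moves were not tested.

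Responses of single genotypes moved as follows. In WT cells, with 8 of 9 called, 5 were called without the run term and 5 in run 2 alone. The WT runs differed for 1 gene with normexp. In PERKKO cells, with 1 called, limma called 0 in a fit on only the groups compared (2 at an unadjusted p under 0.05) and 3 with session terms, added after the data were seen. In ATF4KO cells, with 3 called, the percentile over probes well above background on all arrays gave 5 and only the groups compared 0 (2 unadjusted). In eIF2a A/A cells, with 2 called, normexp, no filter, no run term and the replicate block gave 1 each. In Fv2E-PERK cells, with 1 called, only the groups compared gave 4.

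Differences from WT moved more. PERKKO responses, with 4 called, gave 2 without the run term, 2 with the replicate block, 2 with only the groups compared and 2 with the crossed PERKKO block, which was added after the data were seen because same-numbered PERKKO arrays correlated at -0.47. ATF4KO responses, with 5 called, gave 3 without the filter, 1 with the percentile over probes above background, 1 without the run term, 1 with the replicate block and 0 with only the groups compared (5 unadjusted). eIF2a A/A responses, with 3 called, gave 1 with normexp, 1 with that percentile, 1 without the filter, 1 without the run term, 1 with only the groups compared and 0 with the block (4 unadjusted). Untreated PERKKO cells, with 2 called, gave 4 with that percentile and 4 with session terms. Untreated ATF4KO cells, with 1 called, gave 0 without the run term (1 unadjusted), 0 with only the groups compared (1 unadjusted), 2 with trend and robust options and 4 with session terms.

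With 1 array left out, the number called was 6 to 8 in WT, 1 in PERKKO, 2 to 3 in ATF4KO, 1 in eIF2a A/A and 1 in Fv2E-PERK cells. It was 2 to 5 for the PERKKO, 2 to 6 for the ATF4KO and 0 to 3 for the eIF2a A/A difference, and 2 to 3 and 1 to 2 for untreated PERKKO and ATF4KO cells. A count of 0 for eIF2a A/A came without treated replicate 1 or 2 or untreated replicate 2, with 5, 4 and 3 at an unadjusted p under 0.05.

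Same-numbered WT arrays pair through the scan run, and the block there ended the call of Creb3 alone. Arrays of the other genotypes share only a number. In fits with the replicate block adjusted p was 0.0605 for the Atf6 response of ATF4KO and 0.091 for the Creb3l2 response of eIF2a A/A cells. For the PERKKO difference it was 0.0734 for Ern1 and 0.0742 for Xbp1 (0.0551 and 0.0676 with crossed pairing). For the ATF4KO difference it was 0.06 for Atf6, 0.0855 for Creb3, 0.0635 for Creb3l1 and 0.0523 for Creb3l2. For the eIF2a A/A difference it was 0.052 for Atf6, 0.0714 for Ern1 and 0.103 for Xbp1. The block changed no other call.

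Over all genes, alternatives called 3066 to 5606 (5424 as reported) in WT, 0 to 1217 (330) in PERKKO, 0 to 6152 (4195) in ATF4KO, 234 to 3281 (708) in eIF2a A/A and 185 to 4160 (588) in Fv2E-PERK cells. In PERKKO and ATF4KO cells the 0 came from limma on only the groups compared, with 1970 and 2557 genes at an unadjusted p under 0.05. For the differences from WT they called 769 to 2284 (1903) for PERKKO, 1643 to 6782 (4406) for ATF4KO and 1254 to 2889 (2634) for eIF2a A/A. For untreated cells the counts were 4365 to 6732 (5945) for PERKKO and 1040 to 5097 (3048) for ATF4KO. Leaving out 1 array gave 103 to 206 in PERKKO, 174 to 235 in eIF2a A/A, 138 to 191 in Fv2E-PERK and 2418 to 5424 in ATF4KO cells, and 981 to 1985, 2574 to 5844 and 1407 to 2778 for the differences of PERKKO, ATF4KO and eIF2a A/A.

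Scaling moved the median of all genes by over 0.1 in 5 comparisons. With the percentile over probes above background the median became -0.05 in WT (0.07 as reported), 0.19 in ATF4KO (-0.04), 0.22 for the ATF4KO (-0.13), 0.07 for the eIF2a A/A difference (-0.06) and 0.15 for untreated PERKKO cells (-0.07). Quantile normalization gave 0 for the ATF4KO and 0.07 for the eIF2a A/A difference. The share of calls that were higher was 41.9% with that percentile and 46.3% with quantile normalization, against 56.5%, in WT, 64.5% against 41.2% in ATF4KO cells, and 66.2% and 50.8% against 35.8% for the ATF4KO difference. It was 57.7% and 56.2% against 44.6% for the eIF2a A/A difference, and 57.9% with that percentile against 39.6% in untreated PERKKO cells.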
